A study of Mus musculus with 2 samples.

Results

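The 56 genes described here encode the machinery of mitosis: mitotic kinases and the spindle checkpoint, centromere and kinetochore proteins, spindle kinesins, cytokinesis proteins, and proteins that condense, hold and separate chromosomes. They were chosen by name, with earlier results of these data known, so the choice may not be independent of the values. Every probe set whose platform gene symbol matched a name was taken. All 56 had at least 1 probe set with a single gene symbol, out of 18193 genes named on the array, and together they had 136 probe sets. Sgol1 (shugoshin) was matched under its current symbol Sgo1.

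The study measured mouse Flk1+Tie2+ cells by array in 2 samples. Flk1 and Tie2 are receptors on the surface of endothelium, encoded by Kdr and Tek. In the dox sample, A2lox.Mesp1 embryonic stem cells of the 129/Ola background, which carry a Mesp1 gene that doxycycline (dox) switches on, were grown as embryoid bodies for 5 days with 250 ng/mL dox from day 2. The sample description gives day 4 as the end of dox. In the no dox sample the same line was grown for 5 days without the drug. Both samples therefore carry the transgene, come from a single line and were sorted on day 5 for the same receptors. Dox itself and induced Mesp1 cannot be told apart, since no sample received dox without the transgene. Each condition was hybridised once, so the spread between cultures is unknown, and every difference below compares these 2 samples and carries no p-value. The labels do not say whether material was pooled before the sort.

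When a cell divides, its chromosomes condense and each centromere builds a kinetochore, a protein platform that captures spindle microtubules. The spindle checkpoint holds back the anaphase-promoting complex, a ubiquitin ligase, until all kinetochores are attached. The ligase then has securin and cyclin B destroyed, the cohesin that joins sister chromatids is cut, and a contractile ring divides the cell. Most genes for these proteins are transcribed in a wave late in the cell cycle, under B-Myb, FoxM1 and the MuvB complex. Their mRNA level in a cell population is widely used as a mark of how many cells are cycling.

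Signals are the linear array intensities of the deposited table, in arbitrary units. Differences are on the log2(signal + 16) scale, dox minus no dox, and each gene was represented by its probe set with the highest mean signal. A gene passed the signal filter if it reached the median of all probe sets on either array, 127.3 with dox or 112.2 without. The median difference of the 11794 genes past the filter was 0.05. The pooled SD between probe sets of 1 gene was 0.38, a measure of probe noise and not of variation between cultures. The sort genes differed little: Kdr had a signal of 10733 with dox and 10140 without, and Tek had 9277 with dox and 8799 without. All 12 endothelial markers passed the filter, 8 lower and 4 higher, against 44.4% of all genes lower, with a median difference of -0.06. Among them Cd34 was 2.45-fold lower (382.9 with dox, 962.3 without) and Eng was 2.40-fold higher (3922 with dox, 1626 without). Mesp1 had a signal of 10977 with dox and 2433 without.

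The mitotic genes were lower with dox almost without exception, each by a modest amount. Of the 56 genes, 55 passed the filter, all 55 on both arrays, and all 55 were lower with dox by the probe set that represented them. Among all genes past the filter, 44.4% were lower by any amount. The median log2 difference of the 55 genes was -0.45, which is 1.37-fold lower, beside 0.05 for all genes. The single differences ran from -1.06 for Espl1 to -0.03 for Bub3. They lay close together, with an interquartile range 0.24 log2 units wide, against 0.50 for all genes. All genes include dimmer ones, and the spread was not compared at like signal. DNA replication genes, described below, lay about as close, with an SD of 0.21 beside 0.20 for the mitotic genes. When the arrays were scaled to the same median, 64.4% of all genes were lower by any amount and the median of all genes was -0.13. That scaling shifts all genes down by nearly the same amount, so it is no check on genes that were already lower.

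Few of these differences were large. Only Espl1 was 2-fold or more lower, 1 of 55 genes, against 2.06% of all genes past the filter, so the share at this fold is near the background. None was 2-fold higher, against 5.69% of all genes. At 1.5-fold, a log2 difference of 0.58, 12 of 55 (21.8%) were lower, against 7.06% of all genes, and none was higher, against 11.8% of all genes. The count at 1.5-fold depends on where the threshold is set, since 4 of the 12 lay less than 0.05 log2 units past it and 8 further genes lay less than 0.05 short of it. It also moves with the scaling, to 33 of 55 against 12.6% of all genes once the arrays share a median. Of the 55 differences, 20 were smaller in size than the SD between probe sets. In a mixed sorted population, fewer dividing cells and less mRNA per cell cannot be told apart.

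**Figure D1:**
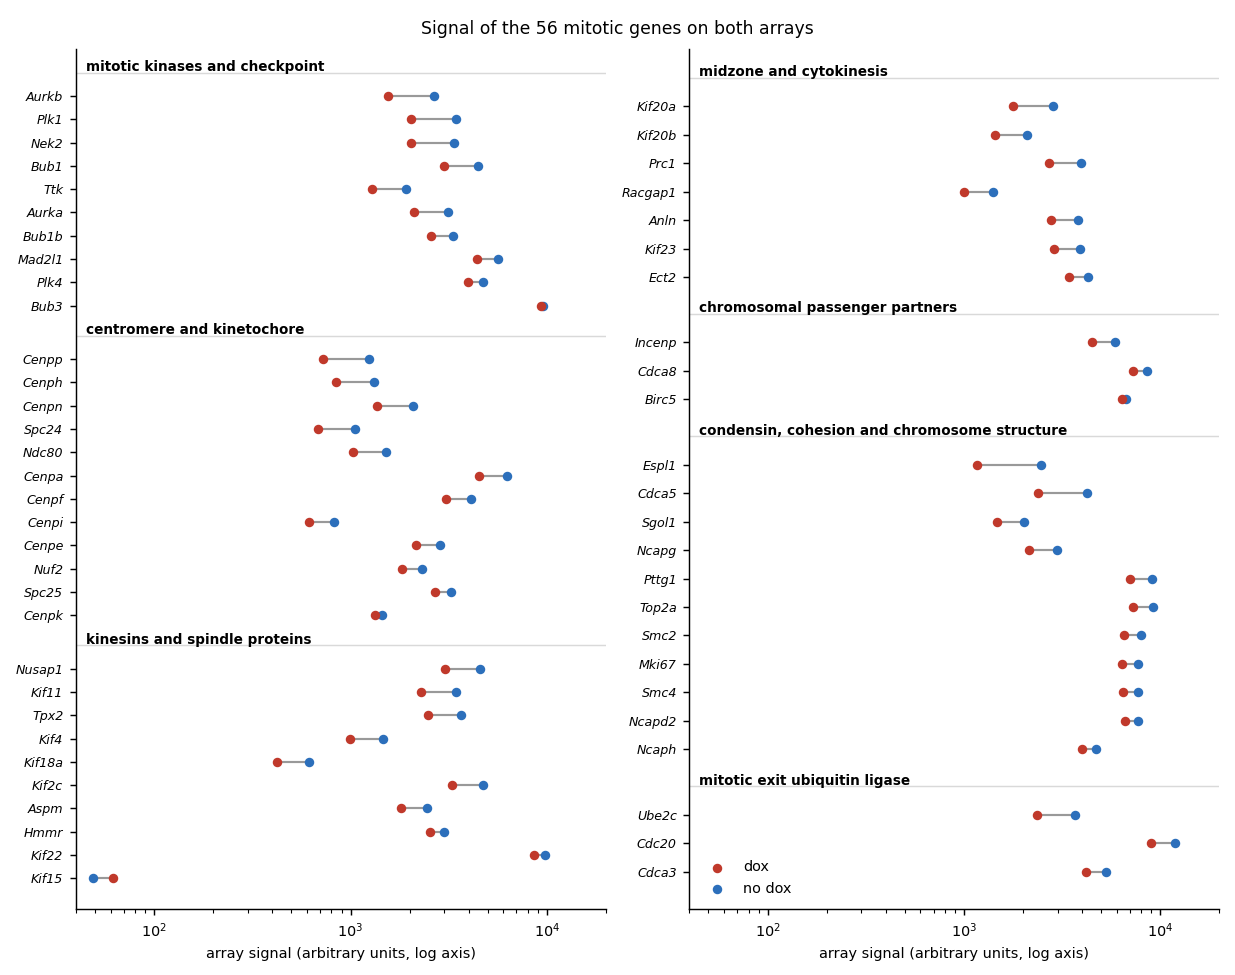
Array signal of each of the 56 mitotic genes with dox (red) and without dox (blue), on a log axis in arbitrary units, 1 array per condition, grouped by role and sorted by difference. The red point lies left of the blue one for every gene but Kif15, which did not pass the signal filter; levels of different genes are not comparable, since each comes from its own probes.

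Other genes of like signal did not share the direction. The mitotic genes had mean signals from 517.5 to 10373, a range set after the values were seen. Of 7563 genes in that range, 44.7% were lower with dox by any amount and 6.77% were 1.5-fold or more lower, and their median difference was 0.04. The counts by probe set include the 55 that represent the genes, so they are in part the same values again. Of the 136 probe sets of the mitotic genes, 114 passed the filter, and 107 of these (93.9%) were lower with dox, against 45.4% of all named probe sets past the filter. At 1.5-fold, 37 of the 114 (32.5%) were lower, against 7.27% of all named probe sets, and 1 was higher. The 7 probe sets that were higher by any amount were all among the other 59. Of 36 genes with several probe sets past the filter, 29 had all of them lower. The other 7 genes, Bub3, Kif11, Aspm, Smc2, Smc4, Ncapg and Top2a, each had 1 probe set that was higher. The same count was not made over all 5173 genes with several probe sets past the filter, so 29 of 36 has no background here.

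Some short sequence motifs were more frequent in the promoters of these genes than in all promoters, though not every promoter held them. A cell cycle gene homology region (CHR) is a short element, TTTGAA in its usual form, bound by the MuvB complex near the start of many late cell cycle genes, and it often lies downstream of CCAAT boxes bound by NF-Y. RefSeq promoter windows of 250 bases before to 50 bases after the annotated start (GRCm38.p6) were found for 50 of the 56 genes, 55 windows in all. The letters TTTGAA occurred on either strand in 37 of the 55 windows (67.3%), against 17.9% of all 32851 promoter windows. The letters CCAAT occurred on either strand in 40 of 55 (72.7%), against 37.4% of all windows. Both motifs were present in 31 of 55 (56.4%), against 6.95% of all. TTTGAA started within 50 bases of the annotated start in 33 of 55 windows (60.0%), against 4.94% of all. E2F sites, searched on both strands as TTTGGCGC, TTTCCCGC, TTTGGCGG or TTTCCCGG, were in 6 of 55 windows (10.9%), against 3.32% of all. A match is a description of letters and not a measured binding site. Aurkb, Incenp, Kif20a, Smc4, Spc24 and Tpx2 had no window matched.

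The windows of 4 genes that hold both motifs and had large differences are shown, to make the arrangement visible; capitals mark TTTGAA or CCAAT in either orientation (TTCAAA and ATTGG on the other strand). The windows are Espl1 at chr15:102296043-102296342, Plk1 at chr7:122159185-122159484, Ube2c at chr2:164769679-164769978 and Cenpn at chr8:116921490-116921789, all on the plus strand of GRCm38.p6.
Espl1: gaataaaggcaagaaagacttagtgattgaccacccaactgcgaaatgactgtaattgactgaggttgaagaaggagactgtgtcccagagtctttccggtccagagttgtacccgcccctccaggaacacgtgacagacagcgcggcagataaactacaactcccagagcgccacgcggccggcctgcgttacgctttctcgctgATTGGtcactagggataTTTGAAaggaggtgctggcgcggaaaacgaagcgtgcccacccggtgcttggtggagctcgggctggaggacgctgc
Plk1: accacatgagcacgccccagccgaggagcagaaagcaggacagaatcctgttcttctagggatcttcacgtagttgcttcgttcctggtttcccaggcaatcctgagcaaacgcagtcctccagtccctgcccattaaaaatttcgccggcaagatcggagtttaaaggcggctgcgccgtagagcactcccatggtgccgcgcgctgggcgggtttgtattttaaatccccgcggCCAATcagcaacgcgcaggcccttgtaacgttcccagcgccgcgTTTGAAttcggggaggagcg
Ube2c: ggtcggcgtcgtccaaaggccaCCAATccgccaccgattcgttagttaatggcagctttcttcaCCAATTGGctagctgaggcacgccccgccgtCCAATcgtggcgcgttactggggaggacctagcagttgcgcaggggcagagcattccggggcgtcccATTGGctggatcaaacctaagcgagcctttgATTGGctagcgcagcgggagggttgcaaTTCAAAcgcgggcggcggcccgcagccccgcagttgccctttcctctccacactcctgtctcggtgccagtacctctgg
Cenpn: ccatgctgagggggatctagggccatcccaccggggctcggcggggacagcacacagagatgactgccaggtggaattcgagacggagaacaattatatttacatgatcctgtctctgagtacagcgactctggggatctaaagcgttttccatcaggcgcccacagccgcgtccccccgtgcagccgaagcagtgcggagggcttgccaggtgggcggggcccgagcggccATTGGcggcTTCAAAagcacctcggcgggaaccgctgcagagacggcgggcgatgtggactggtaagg
In Espl1 and Ube2c the CHR letters start 27 and 29 bases before the annotated start, and in Cenpn 9 bases before it. In Plk1 they start at base 31 after it. In all 4 windows every CCAAT match lies upstream of the CHR letters. Ube2c holds 6 CCAAT matches, of which 2 overlap in 1 palindrome. Genes with and without the letters had similar differences, with medians of -0.45 with TTTGAA and -0.41 without it, and -0.43 with CCAAT and -0.49 without it.

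**Figure D2:**
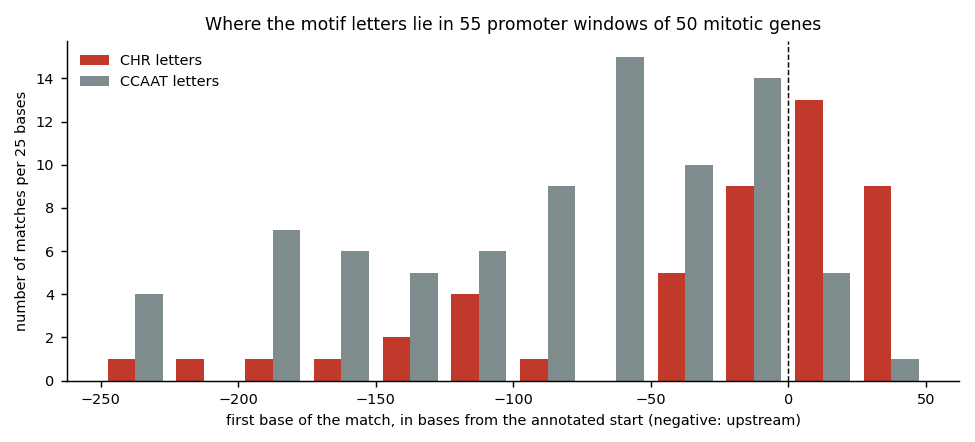
Number of TTTGAA (red) and CCAAT (grey) matches on either strand in steps of 25 bases, by distance of their first base from the annotated start, in 55 promoter windows of 50 mitotic genes. The TTTGAA matches crowd around the start, and 33 of the 55 windows hold one within 50 bases of it.

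Mitotic kinases and checkpoint genes had a median difference of -0.56 over 10 genes. Aurora B (Aurkb), the kinase that corrects wrong kinetochore attachments, had a signal of 1545 with dox and 2648 without (1.71-fold lower, -0.77), and its other probe set gave -0.83. Polo-like kinase 1 (Plk1), which drives mitotic entry, spindle assembly and cytokinesis, had 2031 with dox and 3453 without (1.69-fold lower, -0.76). Nek2, the kinase that separates centrosomes, had 2021 with dox and 3383 without (1.67-fold lower), and its probe sets past the filter gave -0.74 and -0.77. These 3 kinases were the members of the group past 1.5-fold, 30.0% of the 10 genes, against 7.06% of all genes. No probe set of these 3 past the filter was short of that threshold.

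The spindle kinase Aurora A (Aurka) had 2114 with dox and 3120 without, a difference of -0.56. The checkpoint kinases Bub1 (2984 with dox, 4442 without) and Ttk, also called Mps1 (1293 with dox, 1921 without), each gave -0.57. A dimmer probe set of Ttk gave -0.03. Bub1b, which encodes the checkpoint protein BubR1, had 2560 with dox and 3320 without (-0.37), and another of its probe sets gave -0.66. The checkpoint protein gene Mad2l1 had 4411 with dox and 5669 without (-0.36). Plk4, the kinase that starts centriole duplication, had 3989 with dox and 4707 without (-0.24), with -0.49 and -0.57 by its dimmer probe sets.

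Bub3, whose protein holds Bub1 and BubR1 at kinetochores, stood at the upper end of the whole set. It had 9296 with dox and 9515 without, a difference of -0.03. Its 3 probe sets past the filter ran from -0.14 to 0.24, so its direction depends on the probe set.

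Centromere and kinetochore genes had a median difference of -0.44 over 12 genes. Of these, 4 (33.3%) were 1.5-fold or more lower, against 7.06% of all genes. Cenph, Cenpn and Spc24 lay less than 0.05 log2 units past that threshold. Cenpp, of the CENP-O subcomplex of the inner kinetochore, had 723.7 with dox and 1243 without (1.70-fold lower, -0.77), or -0.90 by another probe set. Cenph, of the CENP-H, I and K subcomplex, had 845.3 with dox and 1313 without (1.54-fold lower, -0.63). Cenpn, whose protein recognises the centromeric nucleosome, had 1360 with dox and 2089 without (1.53-fold lower), and its probe sets agreed at -0.61 and -0.63. The fourth was Spc24, a subunit of the Ndc80 complex that binds microtubules, with 686.7 with dox and 1052 without (1.52-fold lower, -0.60).

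The subunits of the Ndc80 complex ran from -0.60 to -0.26. Beside Spc24, Ndc80 had 1033 with dox and 1524 without (-0.55), Nuf2 had 1822 with dox and 2305 without (-0.34), and Spc25 had 2694 with dox and 3232 without (-0.26). The partners of Cenph also differed in size. Cenpi had 616.0 with dox and 824.8 without (-0.41). Cenpk had 1328 with dox and 1449 without (-0.12), although a dimmer probe set gave -0.85. All of these differences were in the same direction, and those of Nuf2, Spc25 and Cenpk were smaller than the SD between probe sets.

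Cenpa, the histone H3 variant that marks the centromere, had 4516 with dox and 6244 without (-0.47). Cenpe, a kinesin that moves chromosomes to the spindle equator, had 2157 with dox and 2851 without (-0.40, or -0.52 by its other probe set). Cenpf, a large protein of the outer kinetochore, had 3078 with dox and 4110 without (-0.42). The probe sets of Cenpf disagreed most in size among the kinetochore genes, from -1.46 to -0.17, all of them lower with dox.

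**Figure D3:**
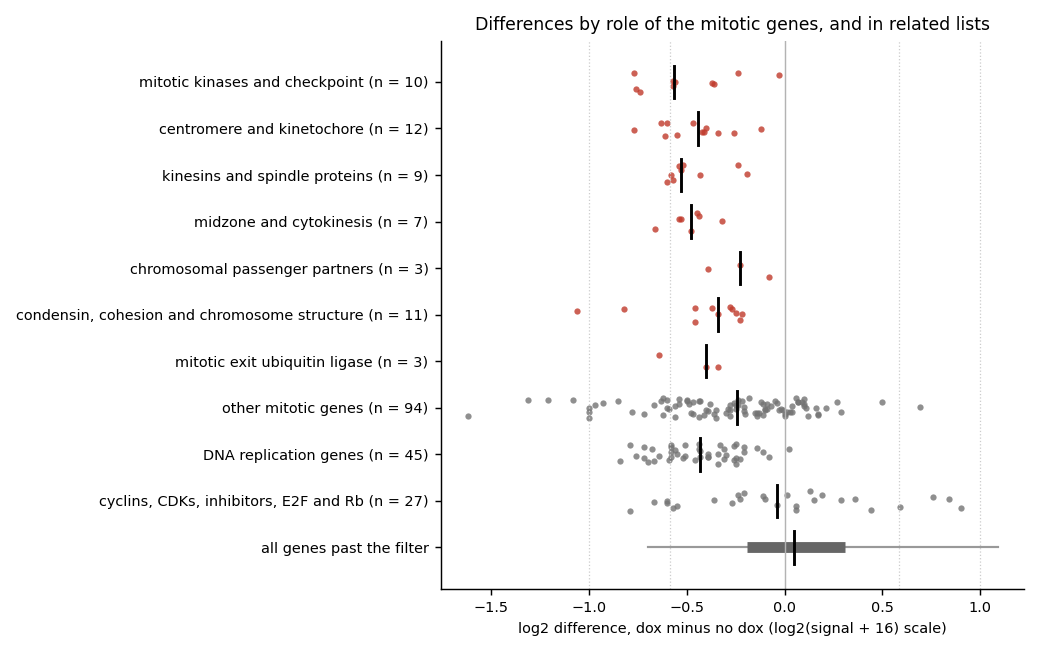
Log2 difference, dox minus no dox, of each gene past the signal filter by role of the mitotic genes (red), in 3 related lists (grey) and over all genes (thick bar, interquartile range; thin line, 5th to 95th percentile); black ticks are medians and dotted lines mark 1.5-fold and 2-fold. Every red point lies left of 0, and the role medians lie between -0.56 and -0.23, whereas the median of all genes is 0.05.

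Spindle kinesins and other spindle proteins had a median difference of -0.53 over the 9 of 10 genes that passed the filter. Nusap1, which bundles spindle microtubules, had 3016 with dox and 4590 without (1.52-fold lower, -0.60), and was the group's only gene past 1.5-fold. That is 11.1% of the 9 genes, against 7.06% of all genes, so the share is near the background. Kif11 (Eg5), the motor that pushes spindle poles apart, had 2294 with dox and 3438 without (-0.58), just short of the threshold. The probe sets of Kif11 disagreed in direction: another gave -0.88 and the dimmest gave 0.60. Tpx2, which activates Aurora A on the spindle, had 2471 with dox and 3672 without (-0.57), and its 4 probe sets ran from -0.64 to -0.12.

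Kif4, a chromokinesin, had 997.0 with dox and 1456 without (-0.54). Kif18a, which damps chromosome movements, had 421.1 with dox and 613.9 without (-0.53). Kif2c (MCAK), a microtubule depolymerase, had 3273 with dox and 4702 without (-0.52), with a range over 4 probe sets from -0.94 to -0.26. Aspm, a spindle pole protein, had 1801 with dox and 2440 without (-0.43), and 4 of its 5 probe sets past the filter were lower, from -1.10, while the other gave 0.08.

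Hmmr, a spindle protein that is also a hyaluronan receptor, had 2536 with dox and 3007 without (-0.24), and all 5 of its probe sets were lower, the lowest at -1.0. Kif22, a chromokinesin, had 8570 with dox and 9802 without (-0.19), but its other probe sets gave -0.70 and -0.75. In both genes the probe set that represented the gene showed less of a difference than most of the others. Kif15, a plus-end motor of the spindle, did not pass the filter, with 61.43 with dox and 48.92 without (0.25), and was the only one of the 56 genes with a higher value.

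Genes of the spindle midzone and cytokinesis had a median of -0.48 and a range from -0.66 to -0.32 over 7 genes, and their SD of 0.10 was the smallest of the 7 roles. Kif20a (MKLP2), which carries Aurora B to the midzone, had 1784 with dox and 2829 without (1.58-fold lower, -0.66). Kif20b, a further kinesin of cytokinesis, had 1445 with dox and 2101 without (-0.54), and Prc1, which cross-links midzone microtubules, had 2726 with dox and 3948 without (-0.53). Both had all their probe sets past the filter lower.

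The centralspindlin genes were alike in size. Racgap1 had 1000 with dox and 1405 without (-0.48), and its partner Kif23 (MKLP1) had 2869 with dox and 3910 without (-0.44). Anln (anillin), a scaffold of the contractile ring, had 2774 with dox and 3804 without (-0.45). Ect2, which activates RhoA at the cell equator, had 3430 with dox and 4284 without (-0.32), the smallest difference of the group.

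The partners of Aurora B in the chromosomal passenger complex had a median of -0.23. None of the 3 was past 1.5-fold, against 7.06% of all genes 1.5-fold or more lower. Incenp, its scaffold, had 4475 with dox and 5881 without (-0.39), and another probe set past the filter gave -1.01. Cdca8 (borealin) had 7265 with dox and 8522 without (-0.23), with -0.49 and -0.78 by its dimmer probe sets. Birc5 (survivin) had 6356 with dox and 6717 without (-0.08), by a single probe set. By the probe sets that represent them, all 3 were nearer to 0 than Aurkb. By other probe sets Incenp reached -1.01 and Cdca8 -0.78, beside -0.77 and -0.83 for Aurkb.

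Genes of chromosome separation and cohesion held the largest differences of all. Espl1 (separase), the protease that cuts cohesin at anaphase, had 1171 with dox and 2467 without (2.09-fold lower, -1.06), by its only probe set. Cdca5 (sororin), which protects cohesion, had 2380 with dox and 4212 without (1.76-fold lower, -0.82), or -0.70 by its other probe set. Sgol1, which protects cohesion at centromeres, had 1465 with dox and 2022 without (-0.46, or -0.36 by its other probe set). Pttg1 (securin), the inhibitor of separase, had 6991 with dox and 9050 without (-0.37), while its other probe sets gave -0.97 and -0.65. Espl1 and Cdca5 were the only members past 1.5-fold among the 11 genes of cohesion, condensation and chromosome structure, whose median was -0.34. That is 18.2% of the 11, against 7.06% of all genes.

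Condensin genes were lower by less. Smc2 and Smc4, the ATPase core, had 6534 and 6438 with dox, against 7951 and 7681 without (-0.28 and -0.25). Ncapd2 had 6573 with dox and 7719 without (-0.23), and Ncaph had 4003 with dox and 4679 without (-0.22). Each of these 4 differences was smaller than the SD between probe sets, and single probe sets of Smc2 (0.02) and Smc4 (0.06) were slightly above 0. For Ncapg the data do not settle a direction. Its probe set with the highest mean signal had 2150 with dox and 2969 without (-0.46), and its other, of similar brightness, gave 0.57.

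Top2a, the topoisomerase that untangles sister chromatids, had 7225 with dox and 9136 without (-0.34), and a dim probe set gave 0.04. Mki67, the proliferation antigen Ki-67 that coats mitotic chromosomes, had 6352 with dox and 7678 without (-0.27). Of the ligase genes, Ube2c, the conjugating enzyme of the anaphase-promoting complex, had 2362 with dox and 3688 without (1.56-fold lower, -0.64). Cdc20, its activator and the target of the checkpoint, had 8924 with dox and 11821 without (-0.40), while its other probe sets gave -0.70 and -0.75. Cdca3, a trigger of mitotic entry that was grouped with them here, had 4181 with dox and 5297 without (-0.34). Ube2c, Cdc20 and Cdca3 were thus lower by every probe set past the filter, though a dimmer one of Cdca3 gave only -0.03.

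**Figure D4:**
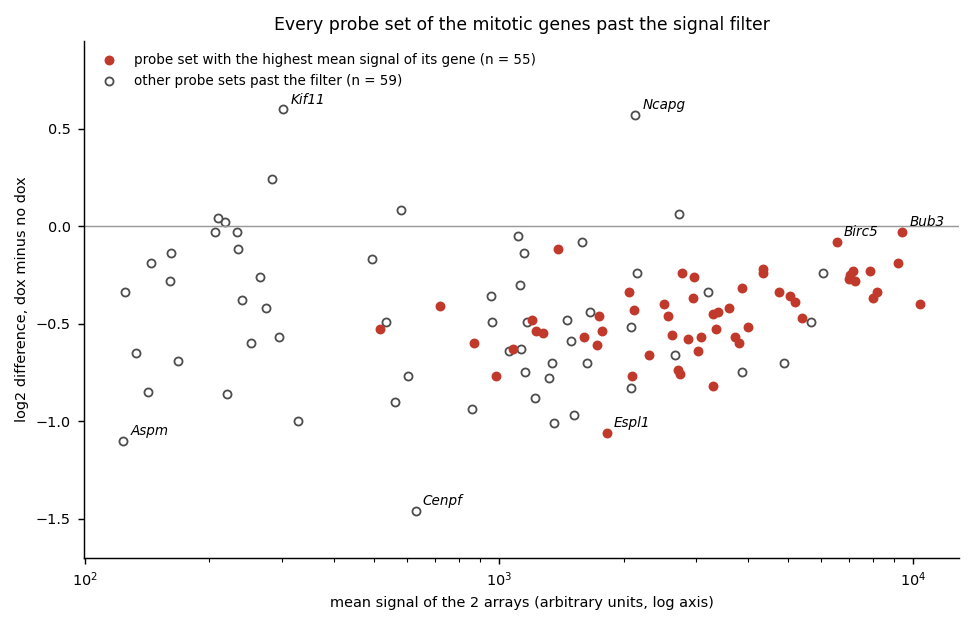
Log2 difference, dox minus no dox, of all 114 probe sets of the mitotic genes past the signal filter, against their mean signal on a log axis; filled points are the probe set that represents each gene (n = 55) and open points the other probe sets (n = 59). All filled points lie below 0, 7 open points lie above it, and the filled points at the highest signals lie nearer to 0.

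A wider list of 97 further mitotic genes was lower in part. Of 94 past the filter, 72 (76.6%) were lower with dox and 22 higher, against 44.4% of all genes lower, and their median was -0.25. At 1.5-fold or more, 19 (20.2%) were lower, against 7.06% of all genes, and 1 was higher, against 11.8% of all genes. The largest differences were those of Cenpo, a partner of Cenpp (1416 with dox, 4388 without, 3.07-fold lower), Pimreg (813.7 with dox, 2046 without, 2.48-fold lower) and Cdc25c, a phosphatase that activates Cdk1 (245.4 with dox, 587.2 without, 2.31-fold lower). Mybl2, which encodes B-Myb (270.0 with dox, 586.6 without), was 2.11-fold lower, and the microtubule-binding kinetochore genes Ska1 (441.9 with dox, 901.5 without) and Ska3 (264.9 with dox, 547.1 without) were each 2.0-fold lower. Cenpo had a probe set at only -0.28, and Mybl2 had one at -0.36.

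On the higher side stood Nipbl, the cohesin loader (4545 with dox, 2807 without, 0.69), with all 5 probe sets higher, the lowest at 0.14. Psrc1 (5280 with dox, 3717 without, 0.50) and Anapc11 (5162 with dox, 4227 without, 0.29) followed, each with another probe set that was lower, at -0.32 and -0.54. By role, the further spindle and centrosome genes had a median of -0.47 over 23 genes and the further kinetochore genes -0.32 over 24. The regulators of mitotic entry had a median of -0.35 over 17 genes and the further condensin and cohesin genes -0.11 over 16. The 14 further subunits and partners of the anaphase-promoting complex had a median of 0.03, near that of all genes, with 6 lower and 8 higher. None of the 14 was past 1.5-fold, against 7.06% of all genes lower and 11.8% higher by that fold. With the arrays scaled to the same median, 89 of the 94 further genes were lower and 5 higher, against 64.4% of all genes lower. At 1.5-fold or more, 33 of them were lower and 0 higher, against 12.6% lower and 8.36% higher of all genes. Ccnb1 and Hjurp had no probe set with a single gene symbol and were not analysed here.

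DNA replication genes, expressed earlier in the cell cycle, were lower to a like extent, with a median of -0.43. Of 45 past the filter, 44 (97.8%) were lower, against 44.4% of all genes, and 10 (22.2%) by 1.5-fold or more, against 7.06%. The largest were the origin loading factor Cdc6 (1909 with dox, 3429 without, -0.84), the helicase subunit gene Cdc45 (1025 with dox, 1779 without, -0.79) and the kinase gene Cdc7 (1352 with dox, 2300 without, -0.76). The 3 at the upper end were Orc6 (0.02), Rpa3 (-0.08) and Mcm4 (-0.11). Cyclins, CDKs, their inhibitors, E2F and Rb genes showed no common direction. Of 27 past the filter, 14 (51.9%) were lower and 13 higher, near the 44.4% of all genes lower, with a median of -0.04. Scaling to the same median gave 19 lower and 8 higher, against 64.4% of all genes lower. Leaving out probe sets that can cross-hybridise turned their median to 0.01. The lowest were Ccnd1, cyclin D1 (1773 with dox, 3071 without, -0.79), E2f2 (217.0 with dox, 353.9 without, -0.67) and E2f5 (8030 with dox, 12172 without, -0.60). The highest were Ccnd2, cyclin D2 (3384 with dox, 1803 without, 0.90), and the CDK inhibitors Cdkn1a (4288 with dox, 2395 without, 0.84) and Cdkn1c (7145 with dox, 4219 without, 0.76).

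Markers of other cell types differed between the same 2 samples. Their counts are to be read beside those of all genes past the filter. Of these, 44.4% were lower by any amount, 5.69% were 2-fold or more higher and 2.06% were 2-fold or more lower. Of 12 smooth muscle and mesenchyme markers, 11 passed the filter and all 11 were higher with dox, 9 of them 2-fold or more, with a median of 2.81. The largest were Tagln (3960 with dox, 96.72 without) and Lum (1029 with dox, 26.78 without). The summed signal of all 12 was 41079 with dox and 5423 without, and Cnn1 was at the table's floor of 1 without dox. Of 10 cardiomyocyte markers, 6 passed and all 6 were 2-fold or more higher, with a median of 2.52, the largest Myl4 (674.0 with dox, 31.03 without). The summed signal of all 10 was 7375 with dox and 1876 without, with none at the floor. Of 11 measured erythroid and early blood markers, 9 passed and 8 of them were lower, with a median of -0.58. Those 2-fold or more lower were Hbb-bh1 (534.8 with dox, 3282 without), Gfi1b (67.31 with dox, 314.3 without) and Hba-x (61.99 with dox, 140.4 without). The summed signal of all 11 was 8659 with dox and 13877 without, with none at the floor. Of 8 pluripotency markers, 4 passed and 3 of them were lower, with a median of -0.39. The summed signal of all 8 was 7959 with dox and 12363 without, and Tdgf1 was at the floor with dox. Most of that sum came from Dppa4 (5365 with dox, 8378 without) and Utf1 (1917 with dox, 3346 without). Dppa5a passed the filter and was higher (0.24), and Pou5f1, Nanog, Zfp42 and Tdgf1 did not pass. The part of these differences in the lower signal of the mitotic genes was not tested.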

How the data were processed

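RNA of sorted cells was hybridised to Affymetrix 3' arrays, per the labels' protocols. For each of 45037 probe sets the authors deposited a signal intensity on a linear scale, at least 1, from either array; the summary method and scaling behind it are not stated by the labels or the table. The platform annotation gave 34945 probe sets 1 gene symbol, 932 several and 9160 none; only the first were named. Differences were computed as log2(signal + 16), dox minus no dox, with Python 3.11.15 and pandas 2.3.3. Each gene was represented by its probe set with the highest mean of both arrays and passed if that reached the array median on either array. Having 1 array for each condition limits the precision, so folds of 1.5 and 2 stand in for tests. The functions were tested on simulated data with larger changes and less noise than these data. That test checks the code and cannot show that modest differences are detected. The alternatives were pseudocounts of 1 and 64, median scaling, quantile normalization, other filters, the mean over probe sets, and leaving out probe sets that can cross-hybridise. All 56 members are named; from the further mitotic, DNA replication and cyclin lists the 3 highest and 3 lowest genes and any past 2-fold are named. Marker lists are given by counts and sums; the markers named beside Kdr and Tek were chosen after their values were seen. Members and lists were chosen with earlier results of these data known. Promoter sequences are from RefSeq.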

Additional observations from a re-analysis of the deposited data

How the results depend on the processing

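The direction of the mitotic genes held under all 9 alternatives for most genes. All those past the filter were lower under 7 of them, but most of these could not have turned a direction. A pseudocount cannot change the sign of a difference, and stricter filters only leave genes out. Scaling to the same median is no check either, since it shifts all genes down alike. Of the 7, only quantile normalization and leaving out probe sets that can cross-hybridise could have turned a sign. Without a filter 55 of 56 were lower, Kif15 being the exception. By the mean over probe sets 53 of 55 were lower, with Bub3 at 0.02 and Ncapg at 0.05. Scaling the arrays to the same median moved the median of all genes to -0.13, against 0.05 as deposited. Under that scaling the median of the members was -0.64, 33 of them were 1.5-fold and 2 were 2-fold lower, the median of the further mitotic genes was -0.43, and 33 of these were 1.5-fold lower and 0 higher. Of all genes, 12.6% were 1.5-fold lower under that scaling. Quantile normalization gave 22 of 55 members 1.5-fold lower, against 9.53% of all genes. Without probe sets that can cross-hybridise, 2 members were 2-fold lower and 2 further mitotic genes were 1.5-fold higher, and with the mean over probe sets 0 of these were 1.5-fold higher. The count of members at 1.5-fold thus ran from 12 to 33 with the scaling, and was 11 with a pseudocount of 64. It rests on many genes near the threshold. The count lower by any amount and the signal range were chosen after seeing the data. No paired analysis was possible because each condition has 1 array. The table as used here holds no background level, and Kif15 lay below the median of both arrays.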

Other observations

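Within genes, probe sets of different brightness gave different sizes of the same difference. Of the 36 mitotic genes with several probe sets past the filter, the brightest lay above the second brightest on the log2 difference scale, dox minus no dox, in 24. The same count was not made over all genes, so the pattern may not be particular to the mitotic genes. The median difference over these 36 genes was -0.43 by the brightest and -0.56 by the second brightest. Across genes, the 11 mitotic genes with mean signals from 6000 to 12000 had a median of -0.25, beside -0.01 for 844 genes of that range, and the 23 with mean signals from 1000 to 3000 had a median of -0.54, beside 0.06 for 3400 genes. Incenp, Cdca8, Pttg1, Kif2c and Kif22 moved by more than the SD between probe sets when probe sets that can cross-hybridise were left out, to -1.01, -0.78, -0.97, -0.94 and -0.75. The cause was not tested.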
